A study of Mus musculus with 10 samples.

Results

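Ribosome footprints of 10 genes of the Notch pathway and the Id family were followed through mouse neocortical neurogenesis. The genes were taken by symbol: the receptors Notch1 and Notch2, the ligands Dll1 and Dll3, the Hes genes Hes1, Hes5 and Hes6, and the Id genes Id2, Id3 and Id4. Each symbol matched 1 row of the 22373 genes in the count table, and all 10 passed the filter on low counts with 13484 genes in all. No measured value was used to choose them, although results on these data were known when the list was drawn up. The samples were neocortex of wild-type CD-1 mice in 4 embryonic stages, E12.5, E14, E15.5 and E17, and at P0, where E counts days of gestation and P0 is the day of birth. There were 2 Ribo-seq libraries per stage and no treatment other than the RNase T1 and RNase A digestion that every lysate received. Each library was made from pooled brains of 1 stage, so a replicate is a pool and no value belongs to a single animal. Ribo-seq counts the mRNA fragments that ribosomes protect from RNase, so a footprint level reflects how much of an mRNA is present as well as how densely ribosomes occupy it, and these cannot be told apart here.

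Notch receptors are cut when a Delta or Jagged ligand on a neighbouring cell binds them, and the freed intracellular domain enters the nucleus, where it joins the DNA-binding protein RBPJ to switch on targets such as Hes1 and Hes5. The Hes1 and Hes5 proteins repress proneural genes and keep radial glia, the neural stem cells of the cortex, in a dividing state. Hes6 is the odd member of its family, since it is found in cells that are becoming neurons and antagonises Hes1. Id proteins have no DNA-binding domain of their own and inactivate proneural bHLH factors by capturing their E protein partners. Id genes are best known as targets of BMP signalling.

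The libraries held 7544404 to 36129988 counts, and the smallest was P0 replicate 1. Values are given as CPM, counts relative to a library size scaled by TMM. Whether these counts are reads or rounded estimates from isoforms is not given in the sources used here. A single count was worth 0.109 CPM in P0 replicate 1 and 0.0239 to 0.0550 CPM in the other 9 libraries. Replicates differed most at P0, where the SD over 4559 well-covered genes of the log2 ratio between libraries was 0.54, against 0.13 at the least. Histone genes (66 symbols that start with Hist) took 34.0% and 38.5% of the counts at E12.5 but 9.83% and 6.32% at P0, so CPM without TMM factors would raise all other genes at the later stages. The neocortex libraries expressed the defining cortical genes at every stage, with 8 of 8 of Emx1, Neurod6, Tbr1, Neurod2, Eomes, Bcl11b, Lhx2 and Fezf2 detected and a summed level of 466 to 749 CPM. In bulk tissue, fewer cells of a type and less mRNA per cell cannot be told apart, which holds for every change below.

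Promoter sequences were read from RefSeq (GRCm38.p6) to show which of the genes carry the letters bound by the pathway's own DNA-binding proteins. They cover 250 bases before to 50 after a start site and were found for 9 of the 10 genes, with 11 promoters in all, and none for Hes1. The RBPJ core GTGGGAA, searched on both strands, was in 6.38% of 32851 mouse promoters and in 1 of the 11, that of Hes5, which held it at 2 places. The Hes site CACGNG, also searched on both strands, was in 27.5% of promoters and in 4 of the 11, those of Notch2, Hes6 and both of Dll1. None of the 11 promoters held both. The windows below are 30 bases, 5′ to 3′ on the gene's strand, with the match in capitals. A capital TTCCCAC is GTGGGAA on the other strand. The annotated span of Hes5 begins upstream of both of its windows and that of Dll1 includes its first window, whereas the other 3 lie outside their genes. A match describes letters and does not show binding, and the footprint counts do not measure binding.
Hes5, chr4:154960685-154960714, plus strand: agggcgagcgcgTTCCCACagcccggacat
Hes5, chr4:154960828-154960857, plus strand: tggccgccgagtGTGGGAAcggccgcggcg
Notch2, chr3:98013484-98013513, plus strand: gaggcggaaggaCACGCGggccgcccagcc
Dll1, chr17:15375911-15375940, minus strand: accagggcaggtCACGGGagagcaccggtg
Dll1, chr17:15376983-15377012, minus strand: cttaatgacagcCACGCGaacgacacacac
Hes6, chr1:91414178-91414207, minus strand: gctgccaactgtCACGGGcatcaagttact

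Stages were compared step by step to find when the footprint levels of these genes shifted. The largest number of members shifted between E14 and E15.5. Here Notch1, Notch2, Dll1, Dll3, Hes1, Hes5, Id3 and Id4 dropped to between 0.222 and 0.380 of their E14 level while Id2 rose 3.90-fold. It was not the larger part of every course, since Notch2 had a log2 fold change of -1.67 both here and from E17 to P0. A gene was called changed at a limma-voom adjusted p under 0.05 and a log2 fold change of at least 0.32 in size. At this step 8 of 10 members were called lower, where 19.6% of all genes tested were, and 1 was called higher, where 16.5% of all genes were. Their median log2 fold change was -1.64, against -0.0086 over all 13484 genes. Both E15.5 libraries were below both E14 libraries for 9 members and above them for 1, which was so for 38.8% and 38.1% of all genes.

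The other steps moved fewer members. From E12.5 to E14, limma-voom called 0 members in either direction, with 0.497% of all genes called higher and 0.141% lower. An unadjusted p under 0.05 was reached by 5 members and by 2137 of all 13484 genes. The edgeR quasi-likelihood test also called 0 members (85 of all genes) and DESeq2 called 1, Id2 (388 of all genes). From E15.5 to E17, 1 member was called lower (Hes1) and 0 higher, against 3.43% and 5.61% of all genes. From E17 to P0, 2 members were called lower (Notch1 and Notch2) and 1 higher (Id3), against 11.1% and 9.46% of all genes. Over the whole series, from E12.5 to P0, 7 were called lower and 1 higher, where 32% and 30.1% of all genes were. The median of the members was -2.83 over this interval, -0.26 from E12.5 to E14, -0.0026 from E15.5 to E17 and -0.25 from E17 to P0. The medians of all genes lay between -0.023 and 0 in these 4 comparisons.

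**Figure D1:**
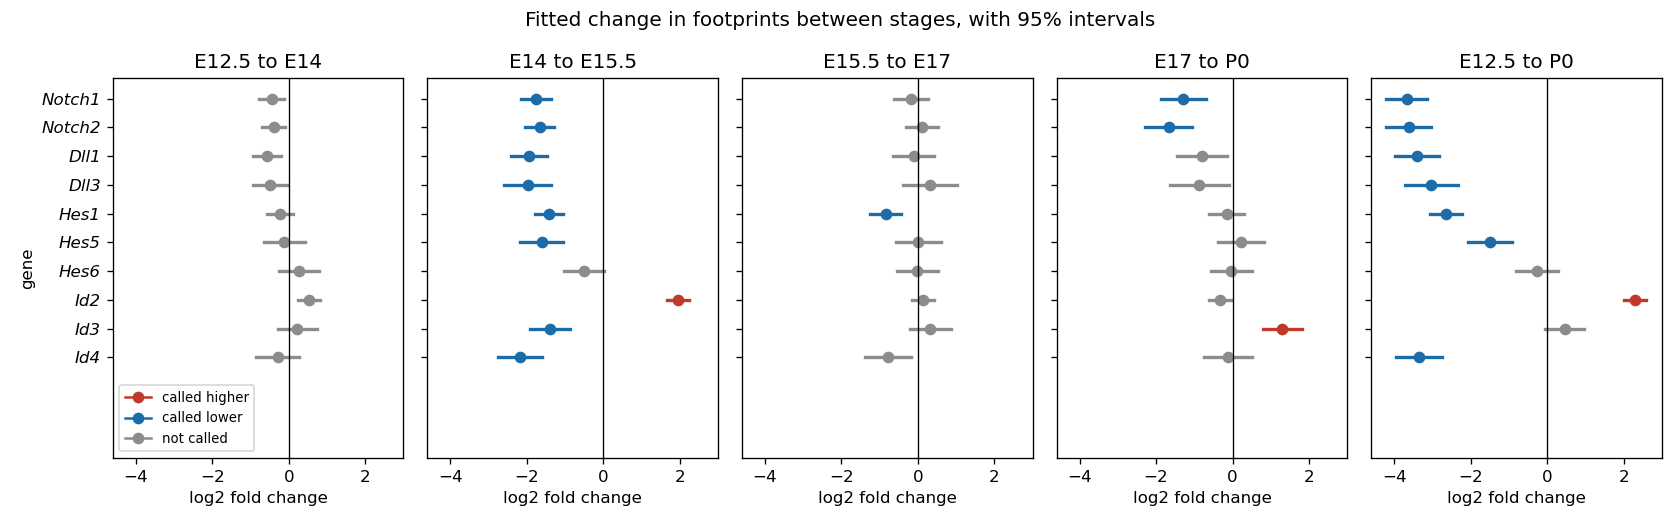
Fitted log2 fold change of each of the 10 genes (vertical axis) in the 5 comparisons (panels), as points with 95% intervals from limma-voom over all 10 libraries. Blue points were called lower, red points higher and grey points not called; the E14 to E15.5 panel holds 8 blue points, 1 red point (Id2) and 1 grey point (Hes6).

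Notch1 and Notch2, the receptors, had their highest levels at the first stage and lost more than 10-fold by birth. Notch1 (ENSMUSG00000026923, GRCm38.p6 chr2:26457902-26503822) was at 7.92 and 9.16 CPM in the E12.5 libraries, 6.32 and 6.24 at E14, and 1.93 and 1.73 at E15.5. It was then at 1.81 and 1.43 CPM at E17 and at 0.870 and 0.620 at P0. The 4 libraries of E12.5 and E14 were thus all above the 6 later ones, and E15.5 and E17 overlapped. The mean went from 6.28 ± 0.05 CPM at E14 (SD, n = 2) to 1.83 ± 0.14 at E15.5, which was 3.39-fold lower (log2 change -1.76 ± 0.17 SE, adjusted p 0.000203 by limma-voom). From E12.5 to P0, Notch1 fell 12.8-fold (log2 fold change -3.68, 95% interval -4.22 to -3.13, limma-voom adjusted p 4.72e-06). In that comparison 1.83% of all genes tested had a larger fall.

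Notch2 (ENSMUSG00000027878, chr3:98013538-98150367) was at 5.28 and 5.72 CPM at E12.5, 4.42 and 4.02 at E14, and 1.42 and 1.18 at E15.5. Its later values were 1.46 and 1.35 CPM at E17 and 0.435 and 0.430 at P0. As with Notch1, every library of E12.5 and E14 was above every later one, and E15.5 and E17 overlapped. It fell 3.17-fold from E14 to E15.5 (log2 change -1.67 ± 0.16 SE, adjusted p 0.000217 by limma-voom) and 12.3-fold from E12.5 to P0 (limma-voom adjusted p 7.36e-06).

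Both receptors were called lower again between E17 and P0, but few footprints stood behind the P0 values. Notch1 had 8 and 26 counts in the P0 libraries and Notch2 had 4 and 18. The log2 fold change was -1.28 for Notch1 (SE 0.26, limma-voom adjusted p 0.0121) and -1.67 for Notch2 (SE 0.27, adjusted p 0.00542). Without P0 replicate 2, the deeper library, Notch1 was at -0.83 (adjusted p 0.249) and Notch2 at -1.54 (adjusted p 0.0942), and neither was called. Without E17 replicate 1 Notch1 was at -1.10 and was not called, and fewer of all genes were called there. Under sample quality weights both calls were lost (adjusted p 0.224 and 0.170), with 698 of all genes called at this step against 2767 without the weights. A limma-voom fit of E17 and P0 alone gave -1.27 for Notch1 and -1.66 for Notch2. It called 0 of all genes (2957 at an unadjusted p under 0.05, and 2482 and 2224 called by edgeR and DESeq2 over all libraries), so the loss of any call in it says nothing about a single gene.

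Dll1 and Dll3 are Delta-like genes made by cells that are leaving the stem cell state. Dll1 activates Notch on neighbouring cells, whereas Dll3 is known as an inhibitor that acts inside the cell that makes it. Dll1 (ENSMUSG00000014773, chr17:15367354-15376932) was at 9.52 and 10.3 CPM at E12.5, 6.18 and 7.23 at E14, and 1.81 and 1.65 at E15.5. It was at 1.97 and 1.28 CPM at E17 and at 1.09 and 0.883 at P0. As with the receptors, the libraries of the first 2 stages were above all others, and the E17 libraries spread around those of E15.5. It fell 3.84-fold from E14 to E15.5 (log2 change -1.94 ± 0.20 SE, adjusted p 0.000276 by limma-voom) and 10.7-fold from E12.5 to P0 (log2 fold change -3.41, adjusted p 9.70e-06).

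Dll3 (ENSMUSG00000003436, chr7:28293555-28301785) had 4.95 and 5.95 CPM at E12.5, 3.93 and 3.83 at E14, and 0.844 and 1.18 at E15.5. At E17 it had 1.46 and 0.976 CPM, and at P0 1.09 and 0.597. All 3 late stages overlapped one another, and all lay below E14. The fall from E14 to E15.5 was 3.94-fold (log2 change -1.98 ± 0.27 SE, adjusted p 0.000884 by limma-voom) and that from E12.5 to P0 8.15-fold (log2 fold change -3.03, adjusted p 5.01e-05). Without P0 replicate 2 the latter was -2.27 (adjusted p 0.00647). From E17 to P0 neither ligand was called, at -0.80 for Dll1 (95% interval -1.45 to -0.16, limma-voom adjusted p 0.0778) and -0.87 for Dll3 (-1.64 to -0.095, adjusted p 0.105). Without single libraries Dll1 ran from -0.47, without E17 replicate 1, to -1.09, without E17 replicate 2, where it was called lower (adjusted p 0.0468). Dll3 ran from -0.11, without P0 replicate 2 (adjusted p 0.905), to -1.13, without E17 replicate 2 (adjusted p 0.0950). In P0 replicate 1 each ligand rested on 10 counts.

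**Figure D2:**
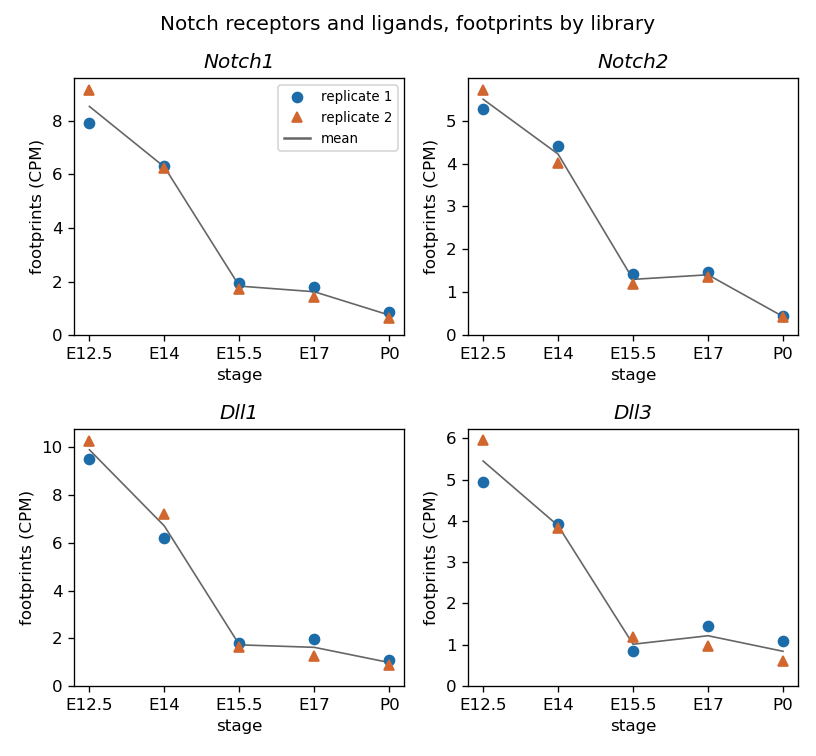
Footprints in CPM (vertical axis, from 0) by stage for Notch1, Notch2, Dll1 and Dll3. Circles are replicate 1, triangles replicate 2 and the line joins the means of the 2 libraries; in each panel the 4 libraries of E12.5 and E14 lie above the 6 of E15.5, E17 and P0.

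All 4 receptor and ligand genes were already lower at E14 than at E12.5 in both libraries, by amounts that did not pass the test, and 26.2% of all genes were lower in both libraries at this step. Their log2 fold changes were -0.45 for Notch1, -0.39 for Notch2, -0.56 for Dll1 and -0.50 for Dll3 (limma-voom adjusted p 0.140 to 0.268). Dll1 was called lower at this first step without P0 replicate 1 (adjusted p 0.0492), where 1059 of all genes were called against 86 with it. At E15.5 to E17 the 4 values ran from -0.18 for Notch1 to 0.31 for Dll3, and the widest 95% interval, that of Dll3, reached from -0.39 to 1.02. The sign of Notch2 and that of Dll1 at this step turned when single libraries were left out.

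The Hes genes did not move as 1 group. Hes1 (ENSMUSG00000022528, chr16:30065357-30067796), a transcriptional repressor and Notch target, was at 24.1 and 25.5 CPM at E12.5, 22.7 and 19.9 at E14, and 8.62 and 7.30 at E15.5. It was at 4.76 and 4.09 CPM at E17 and at 5.22 and 3.56 at P0. Each stage up to E17 was below the one before in both libraries, and P0 spread across E17. Hes1 fell 2.66-fold from E14 to E15.5 (log2 change -1.41 ± 0.16 SE, adjusted p 0.000416 by limma-voom). It was the one member called from E15.5 to E17, at 1.80-fold lower (log2 change -0.85 ± 0.18 SE, adjusted p 0.0277 by limma-voom). That call was lost without any one of the E12.5, E15.5 and E17 libraries, with values of -0.72 to -0.96 (adjusted p 0.0518 to 0.227). Without an E15.5 or E17 library only 0 to 18 of all genes were called at this step by limma-voom (2048 to 2318 at an unadjusted p under 0.05), against 1219 with all libraries. From E12.5 to P0 the fall was 6.22-fold (adjusted p 7.00e-06).

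Hes5 (ENSMUSG00000048001, chr4:154960626-154962372), the other repressor that Notch switches on in radial glia, was at 29.9 and 35.2 CPM at E12.5, 31.3 and 28.7 at E14, and 10.5 and 9.04 at E15.5. It was at 9.02 and 10.8 CPM at E17, and at 17.2 and 9.04 at P0. The first 2 stages overlapped, and so did E15.5 and E17. The P0 libraries were far apart, so that P0 replicate 1 stood above every E15.5 and E17 library and P0 replicate 2 among them. Hes5 fell 3.06-fold from E14 to E15.5 (log2 change -1.61 ± 0.25 SE, adjusted p 0.00158 by limma-voom) and 2.82-fold from E12.5 to P0 (adjusted p 0.00100). From E17 to P0 it was not called (log2 fold change 0.23, 95% interval -0.38 to 0.83, limma-voom adjusted p 0.567). Without P0 replicate 2 the value was 0.81, and without P0 replicate 1 it was -0.12.

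Hes6 (ENSMUSG00000067071, chr1:91411483-91414038), found in differentiating cells, had the narrowest range of stage means of the 10. It was at 35.6 and 47.2 CPM at E12.5, 53.8 and 46.5 at E14, and 37.2 and 33.3 at E15.5. The later values were 34.9 in both E17 libraries and 45.9 and 27.2 CPM at P0. Its highest stage mean was 1.44 times its lowest, and every stage overlapped its neighbour in the order of levels. It was not called in any of the 5 comparisons, including E14 to E15.5 (log2 fold change -0.50, 95% interval -1.03 to 0.020, limma-voom adjusted p 0.122), where both E15.5 libraries were nevertheless below both E14 libraries. At that step it was called lower by limma-voom under sample quality weights (adjusted p 0.0108) and in a fit of E14 and E15.5 alone (0.00763). These called 6502 and 6390 of all genes, against 4868 in the unweighted fit of all 10 libraries. Without either P0 library the value was -0.50. From E12.5 to P0 the value was -0.27 (95% interval -0.81 to 0.27, limma-voom adjusted p 0.344). Without P0 replicate 1 it was -0.60, and without P0 replicate 2 it was 0.15.

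Id2 ran against the other genes. It is an inhibitor of bHLH factors that is also made by cortical neurons. Id2 (ENSMUSG00000020644, chr12:25093799-25096092) was at 90.9 and 96.9 CPM at E12.5, 127 and 146 at E14, and 538 and 525 at E15.5. It was at 605 and 560 CPM at E17 and at 512 and 412 at P0. No 2 stages overlapped, and every library from E15.5 on was above every earlier one. The rise from E14 to E15.5 was 3.90-fold (log2 change 1.96 ± 0.13 SE, adjusted p 6.04e-05 by limma-voom), and 1.59% of all genes rose more. Before it, the difference from E12.5 to E14 was 0.54 (SE 0.13, limma-voom adjusted p 0.0905). DESeq2 called it (adjusted p 0.0126), as did limma-voom with sample quality weights (0.0236). These called 388 and 655 of all genes, against 86 in the unweighted limma-voom fit. Without either P0 library the difference was again 0.54. From E17 to P0 it was at -0.34 (limma-voom adjusted p 0.0905), and at -0.50 without P0 replicate 1. At P0 Id2 was 4.89-fold above E12.5 (adjusted p 2.25e-06).

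Id4, known for its role in the timing of neural stem cell differentiation, had the largest fitted fall of the members from E14 to E15.5. Id4 (ENSMUSG00000021379, chr13:48261116-48266028) was at 209 and 255 CPM at E12.5, 216 and 166 at E14, and 48.2 and 36.6 at E15.5. It was at 26.2 and 22.9 CPM at E17 and at 31.4 and 17.9 at P0. The E12.5 and E14 libraries overlapped, those of E15.5 were below them all, and those of E17 and P0 were below E15.5. The fall from E14 to E15.5 was 4.50-fold (log2 change -2.17 ± 0.25 SE, adjusted p 0.000449 by limma-voom), a size that 3.16% of all genes exceeded. The next step was at -0.78 (95% interval -1.38 to -0.18, limma-voom adjusted p 0.106). It was called lower by limma-voom in a fit of E15.5 and E17 alone (adjusted p 0.0133) and under sample quality weights (0.00641). These called 3212 and 3717 of all genes, against 1219 in the unweighted fit of all 10 libraries. When either P0 library was left out the value was -0.78. From E12.5 to P0 the fall was 10.2-fold (adjusted p 1.39e-05).

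Id3 fell and then rose. Id3 (ENSMUSG00000007872, chr4:136143822-136145392), a BMP-responsive member also made by blood vessels and glia, was at 34.6 and 40.2 CPM at E12.5, 47.5 and 40.4 at E14, and 18.8 and 14.6 at E15.5. It was at 18.8 and 23.0 CPM at E17 and at 65.0 and 42.1 at P0. The E15.5 and E17 libraries formed a low middle, below all libraries of the first 2 stages and of P0. Id3 fell 2.63-fold from E14 to E15.5 (log2 change -1.40 ± 0.23 SE, adjusted p 0.0021 by limma-voom). It rose 2.46-fold from E17 to P0 (log2 change 1.30 ± 0.22 SE, adjusted p 0.00681 by limma-voom). Without E17 replicate 1 the rise was 1.16 and was not called, and fewer of all genes were called there. The rise was 1.31 in the fit of E17 and P0 alone. The ends of the series were not called apart (log2 fold change 0.45, 95% interval -0.054 to 0.96, limma-voom adjusted p 0.105). They were called with total counts only (0.98, limma-voom adjusted p 0.00500). In that scaling the median gene was at 0.51, and Id3 was at 0.46 relative to it. Without P0 replicate 2 the value was 0.80.

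**Figure D3:**
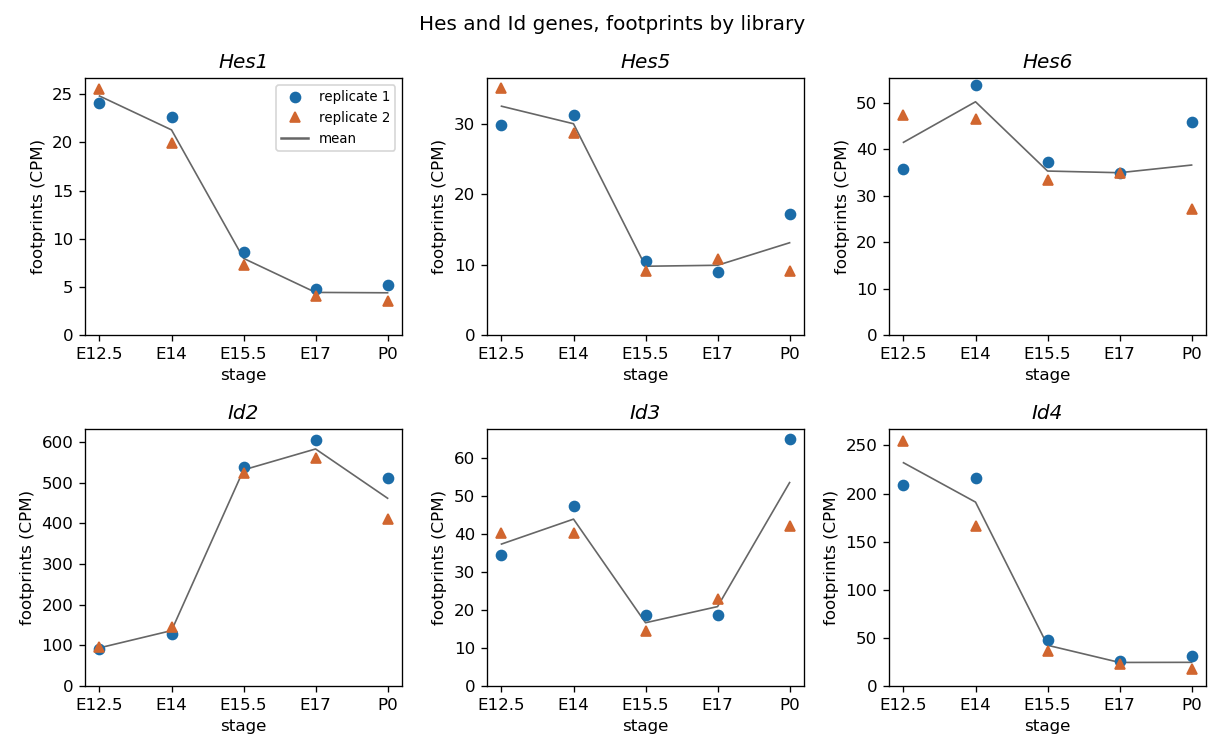
Footprints in CPM (vertical axis, from 0, a different range in each panel) by stage for the 3 Hes and the 3 Id genes. Circles are replicate 1, triangles replicate 2 and the line joins the means; Id2 goes up between E14 and E15.5 where Hes1, Hes5, Id3 and Id4 go down, Id3 goes up again at P0, and the P0 libraries are far apart for Hes5, Hes6, Id3 and Id4.

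The scaling of the libraries moved all values together. With total counts only, the median of all genes was at 0.29 from E14 to E15.5 and at 0.51 from E12.5 to P0 on the log2 scale. The same 9 members kept their calls from E14 to E15.5, with Notch1 at -1.47, Hes1 at -1.12, Id4 at -1.87 and Id2 at 2.26. Relative to the median gene these were -1.75, -1.40, -2.16 and 1.97. Hes6 from E12.5 to P0 turned to 0.25, or -0.26 relative to the median gene.

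Ratios of 2 genes' counts within a library do not depend on library size, and pairs were chosen for this after their values were seen. The level of such a ratio also depends on the length of the genes, so only its course over the stages is described. The count ratio of Id2 to Id4 was 0.435 and 0.380 at E12.5, 0.588 and 0.876 at E14, and 11.2 and 14.4 at E15.5. It was 23.1 and 24.5 at E17 and 16.3 and 23.0 at P0, so all libraries from E15.5 on were above all earlier ones by more than 10-fold. The ratio of Hes6 to Hes5 went from 1.19 and 1.34 at E12.5 and 1.72 and 1.62 at E14 to 3.54 and 3.69 at E15.5, 3.87 and 3.23 at E17, and 2.67 and 3.01 at P0. Here the P0 libraries, which were far apart in CPM for both genes, lay close to each other. Id3 to Id4 was 0.165 and 0.158 at E12.5, 0.220 and 0.243 at E14, and 0.389 and 0.398 at E15.5. It was 0.720 and 1.00 at E17 and 2.07 and 2.36 at P0, so every stage was above the one before. Dll1 to Notch1, in contrast, remained between 0.895 and 1.42 in all 10 libraries. Differences between these ratios were not tested.

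**Figure D4:**
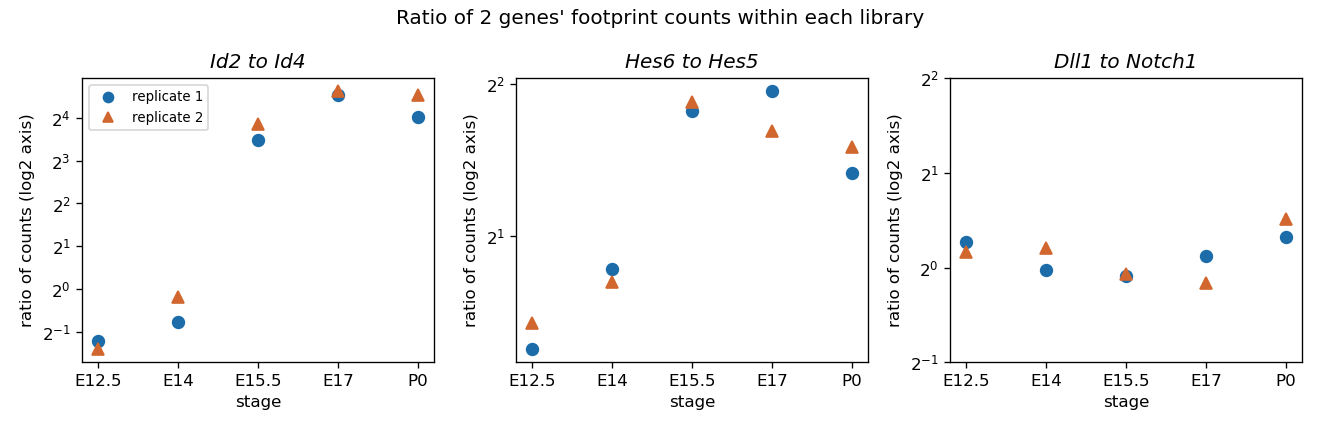
Ratio of footprint counts of 2 genes within each library by stage (vertical axes on a log2 scale, with a different range in each panel). Circles are replicate 1 and triangles replicate 2; Id2 to Id4 shifts from below 1 to above 11 between E14 and E15.5, Hes6 to Hes5 shifts from at most 1.72 to at least 3.54, and Dll1 to Notch1 stays between 0.895 and 1.42.

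Courses over the 10 libraries were compared by Pearson's correlation of log2 CPM, given as a description because libraries of 1 stage share that stage. The most alike members were Hes1 and Id4 (r = 0.995), followed by Notch1 with Dll1 (0.988) and Notch1 with Notch2 (0.986). Hes5 was at 0.902 with Hes1. Id2 was at -0.943 with Id4 and at -0.534 with Hes6. Id3 was at 0.151 with Notch1 and 0.041 with Notch2, the weakest pair, but at 0.635 with Hes5. Among 9208 other genes that averaged 100 counts or more, the one most like Notch1 was Pbx2 (r = 0.998), for Notch2 it was Slc7a6 (0.995), for Dll1 Gpc3 (0.995) and for Dll3 Tpbg (0.985). For the Hes genes they were Yap1 with Hes1 (0.996), Galk1 with Hes5 (0.988) and Ppp1r35 with Hes6 (0.964). For the Id genes they were Tcp11l1 with Id2 (0.995), Cdkn1a with Id3 (0.981) and Sox2 with Id4 (0.997).

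Other genes of the Notch, Id and BMP pathways were counted from a list of 69, of which 63 passed the filter. Notch4, Hes2, Hes3, Hes7, Bmp2 and Smad9 did not. From E14 to E15.5, 10 were called higher and 22 lower by limma-voom, where 16.5% and 19.6% of all genes were. With total counts only the split was 16 to 15, with 6059 of all genes called against 4868 and the median gene at 0.29. From E12.5 to P0, 16 were called higher and 34 lower, where 30.1% and 32% of all genes were. With total counts only this split was 23 to 23, with 8949 of all genes called against 8371 and the median gene at 0.51. The first step had 0 calls in either direction by limma-voom, and 1 each by edgeR and DESeq2. At an unadjusted p under 0.05 were 13 genes of the list and 2137 of all 13484 genes. From E15.5 to E17 there were 5 higher and 3 lower (5.61% and 3.43% of all genes), and from E17 to P0 5 higher and 11 lower (9.46% and 11.1% of all genes). Their medians were -0.21 between E14 and E15.5 and -0.59 between E12.5 and P0, nearer to all genes than those of the 10 members. The count of the list from E14 to E15.5 fell without either E15.5 library and without E14 replicate 2, as did that of all genes. From E15.5 to E17 it fell without any one E12.5, E14, E15.5 or E17 library. It rose at that step without either P0 library. At the last step it fell without either E17 library, and at the first it rose without either P0 library. The count of all genes moved in the same direction each time.

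Of the 7 other receptors and ligands that passed the filter, 4 were called lower and 1 higher from E14 to E15.5. From E12.5 to P0, 4 were called lower and 2 higher. For this list and those below, the shares of all genes were 19.6% lower and 16.5% higher from E14 to E15.5. They were 32% lower and 30.1% higher from E12.5 to P0. Dlk1, another atypical ligand without the domain that activates the receptor, fell from 15.1 to 1.98 CPM (log2 change -2.91 ± 0.33 SE, adjusted p 0.000421 by limma-voom), and from E12.5 to P0 it was at -4.98 (adjusted p 0.00023). Its P0 libraries were far apart at 0.109 and 1.05 CPM, the former a single count, and without P0 replicate 2 the value was -7.24 (adjusted p 0.0230). Dlk2, of the same kind, rose from 1.17 to 3.13 CPM (1.42 ± 0.34 SE, adjusted p 0.0121) and reached 10.7 CPM at P0, a log2 fold change of 4.36 from E12.5 (SE 0.47, adjusted p 8.28e-05). The E12.5 level of Dlk2 rested on 27 counts, at 1.05 CPM in replicate 1 and 0.299 CPM in replicate 2. The change was 5.05 without E12.5 replicate 1 and 3.29 without E12.5 replicate 2. Notch3, the receptor of vascular mural cells that radial glia also make, fell from 1.47 to 0.289 CPM (-2.33, adjusted p 0.0011), and Jag1 from 1.03 to 0.425 CPM (-1.23, adjusted p 0.015). The E14 to E15.5 call of Dlk2 was lost without either E14 library or E15.5 replicate 1 (adjusted p 0.0530 to 0.0969), and that of Jag1 without E14 replicate 2 or either E15.5 library (0.0615 to 0.0906) and with DESeq2 (0.137). Notch3, Jag1, Hey2, Heyl, Nrarp, Tcf3, Id1 and, outside the step from E15.5 to E17, Rbpj were chosen after their values were seen.

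Of the 5 genes that place sugars on the receptors, 3 were called lower and 1 higher from E14 to E15.5, and 4 lower and 1 higher from E12.5 to P0. Lfng, a Fringe that alters which ligands a receptor answers to, fell from 8.63 to 2.16 CPM at the middle step (log2 change -1.99 ± 0.38 SE, adjusted p 0.00483 by limma-voom), and by P0 it was at -2.58 relative to E12.5 (adjusted p 0.000633). Its P0 libraries were at 4.02 CPM (replicate 1) and 1.36 CPM (replicate 2), and without P0 replicate 2 the value was -1.38. Of 10 protease genes, 3 were called lower and 0 higher from E14 to E15.5, and 5 lower and 1 higher from E12.5 to P0. Adam17, a sheddase, fell from 14.8 CPM at E12.5 to 3.30 at P0 (-2.35 ± 0.24 SE, adjusted p 6.13e-05).

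Genes of ligand endocytosis and receptor turnover were called higher more than lower, with 4 of 12 higher and 2 lower from E14 to E15.5 and 8 higher and 3 lower from E12.5 to P0. Neurl1b, a ubiquitin ligase of the Neuralized family, rose from 3.36 to 9.13 CPM at the middle step (log2 change 1.5 ± 0.27 SE, adjusted p 0.00371 by limma-voom) and was at 24.2 CPM at P0 against 1.99 at E12.5 (3.49, adjusted p 2.85e-05). Dtx1, of the Deltex ubiquitin ligases, went up from 2.35 to 13.6 CPM over the whole series (2.52 ± 0.13 SE, adjusted p 1.94e-06). Its relative Dtx4 rose from 3.15 to 7.33 CPM between E15.5 and E17 (1.24, adjusted p 0.00743) and to 13.8 CPM at P0 (0.89, adjusted p 0.0035). Neurl1b also rose from E17 to P0 (0.97, adjusted p 0.0213). The Dtx4 call from E15.5 to E17 was lost without any one library of those 2 stages (1.08 to 1.36). The Neurl1b call from E17 to P0 was lost without either E17 library (0.96 and 1.00). Fewer of all genes were called in each of these fits.

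Of the 12 genes of the nuclear complex and its corepressors, 2 were called higher and 1 lower from E14 to E15.5. Rbpj, the DNA-binding partner of the Notch intracellular domain, was at 142 CPM at E14 and 127 at E15.5 and was not called (log2 fold change -0.16, 95% interval -0.54 to 0.21, limma-voom adjusted p 0.482). It fell to 76.4 CPM at E17 (-0.73, adjusted p 0.0347) and to 43.3 at P0, from 155 at E12.5 (-1.83, adjusted p 3.58e-05). The call from E15.5 to E17 was lost without any one E12.5, E14, E15.5 or E17 library (adjusted p 0.0573 to 0.186) and with no filter on low counts (0.0561). Tle4, a Groucho corepressor that layer 6 neurons express, rose from 12.6 to 32.1 CPM from E14 to E15.5 (1.35 ± 0.12 SE, adjusted p 0.000148).

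The 4 other target genes that passed the filter, Hey1, Hey2, Heyl and Nrarp, were all called lower both from E14 to E15.5 and over the whole series. Hey1 fell from 25.3 to 9.38 CPM at the middle step (log2 change -1.44 ± 0.15 SE, adjusted p 0.000273 by limma-voom) and Hey2 from 3.42 to 0.889 CPM (-1.91, adjusted p 0.000405). Heyl was at -0.94 (adjusted p 0.0169) and Nrarp, a feedback inhibitor of Notch, at -0.91 (adjusted p 0.0262). The calls of Heyl and Nrarp at that step were lost with total counts only (adjusted p 0.0624 and 0.0872), that of Heyl without E14 replicate 2 or either E15.5 library (0.0696 to 0.128) and with DESeq2 (0.140), and that of Nrarp without any one E14 or E15.5 library (0.0696 to 0.130).

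Among the partners and inducers of the Id proteins, 2 of 13 were called higher and 5 lower from E14 to E15.5, and 2 higher and 9 lower from E12.5 to P0. Tcf3, an E protein that Id proteins capture, fell from 219 to 101 CPM (log2 change -1.12 ± 0.21 SE, adjusted p 0.00411 by limma-voom) and to 48.8 at P0 (-2.19 from E12.5, adjusted p 4.88e-05). Tcf12, another E protein, fell from 145 to 101 CPM between E15.5 and E17 (-0.51, adjusted p 0.04), a call lost without any one E12.5, E14, E15.5 or E17 library (adjusted p 0.0698 to 0.279), with edgeR (0.0564), with no filter (0.0679) and with the replicate block (0.0657). Id1, the remaining Id gene, was at 19.9 and 16.3 CPM at E14 and E15.5 on average and was not called (-0.27, adjusted p 0.366). It was higher at P0 than at E12.5, at 27.9 against 14.9 CPM (0.82, adjusted p 0.0117), a call lost without E12.5 replicate 1 (0.77, adjusted p 0.0556) and in a fit of those 2 stages alone (0.0519). The BMP receptor gene Bmpr1a fell from 8.59 to 3.65 CPM between E17 and P0 (-1.12, limma-voom adjusted p 0.00808), a call lost under sample quality weights (adjusted p 0.0821). That call was also lost without E17 replicate 1 (-1.12), where fewer of all genes were called. Dlk1 rose from 1.98 to 8.0 CPM from E15.5 to E17 (1.96, adjusted p 0.0166), a call lost without any one library of those stages (0.0741 to 0.152). It was lower again at P0, at 0.579 CPM (-3.32, adjusted p 0.0109), a call lost without P0 replicate 2 (-5.58, adjusted p 0.0946) and under sample quality weights (0.293). In the fit of E17 and P0 alone, which called no gene of the table, Dlk1 was at -3.35, Bmpr1a at -1.15, Neurl1b at 0.99 and Dtx4 at 0.89.

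**Figure D5:**
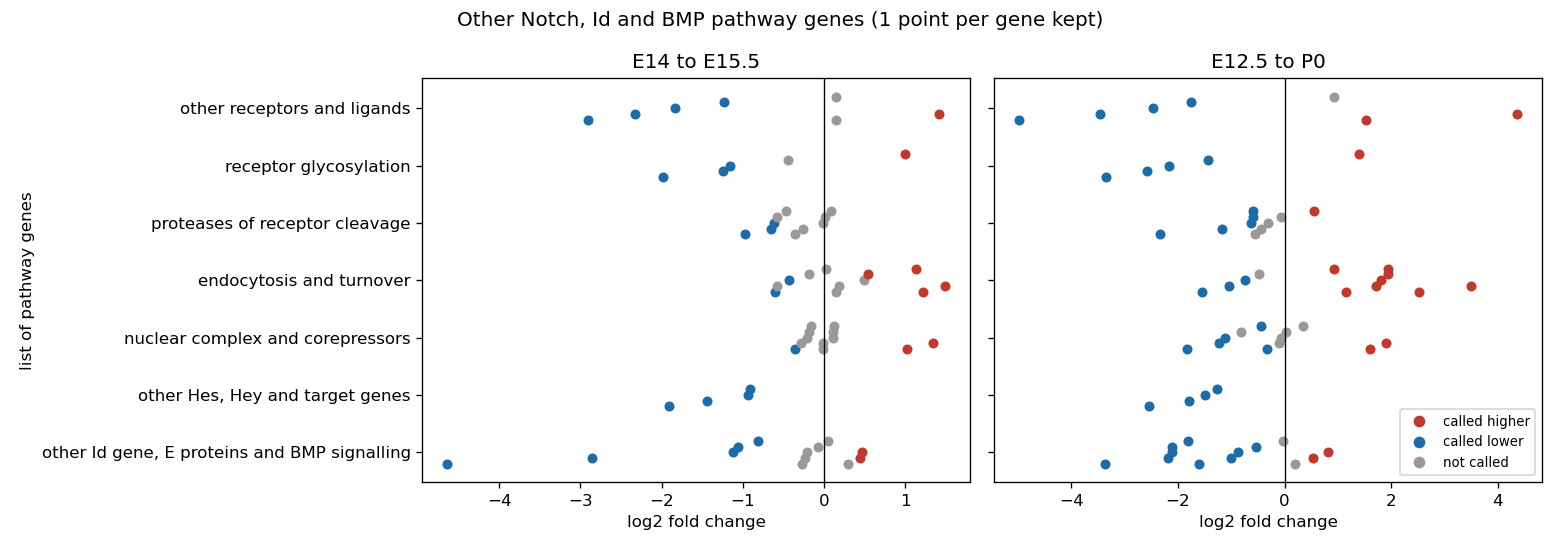
Fitted log2 fold change (horizontal axes) of the 63 other pathway genes that passed the filter, by list, from E14 to E15.5 (left) and from E12.5 to P0 (right). Each point is 1 gene, red where called higher, blue where called lower and grey where not called, with vertical offsets only to separate points; the 4 other Hes, Hey and target genes are blue in both panels, and 8 of 12 endocytosis and turnover genes are red in the right panel.

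Markers of other cells moved at the same step as the members, where 19.6% of all genes were called lower and 16.5% higher. From E14 to E15.5, 10 of 10 endothelial markers were called lower (summed level 29.9 to 39.9 CPM at E14 and 8.66 to 10.4 at E15.5). The same held for 10 of 10 markers of meninges (68.9 to 77.0 and 2.91 to 3.50 CPM) and for the 8 of 10 choroid plexus markers that passed the filter (1168 to 1176 and 12.4 to 15.2 CPM, summed over all 10). Of 9 red blood cell markers tested, 6 were called lower and 0 higher (10042 to 11056 and 6906 to 7422 CPM over all 10 of the list). Of 10 astrocyte markers 4 were called lower and 2 higher, with a summed level of 348 to 361 CPM at E14 and 179 to 187 at E15.5. At E15.5, Prlr of the choroid plexus list was at 0 in both libraries, and no endothelial or meningeal marker was. Of 10 radial glia markers, 6 were called lower and 1 higher, with a median log2 fold change of -0.96, while their summed level was 2272 to 2327 CPM at E14 and 2252 to 2405 at E15.5. Of 9 neuronal markers 8 were called higher (3050 to 3114 and 6429 to 6671 CPM), and so were 6 of the 9 ganglionic eminence markers tested (33.2 to 38.1 and 121 to 125 CPM over all 10 of that list). Endothelium, meninges and choroid plexus also express Notch, Hes and Id genes. The part of these cells in the falls of the 8 members and in the rise of Id2 was not tested.

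From E17 to P0, where Id3 rose, 9.46% of all genes were called higher and 11.1% lower. Of 10 astrocyte markers, 4 were called higher and 0 lower, with a summed level of 157 to 169 CPM at E17 and 207 to 215 at P0. Red blood cell markers had the largest median shift of these lists, with 5 of 9 tested called lower and 1 higher, a median log2 fold change of -2.10 and a summed level over all 10 of 7253 to 7259.9 CPM at E17 and 1439 to 1862 at P0. Of 9 neuronal markers 3 were called higher and 0 lower (6709 to 6989 and 7941 to 8954 CPM). Ganglionic eminence markers had 1 called higher, and no marker of meninges or choroid plexus was called at this step. Of 10 endothelial markers 4 were called lower and 0 higher (15.9 to 17.5 CPM at E17 and 6.63 to 10.3 at P0). Radial glia markers were called lower in 5 cases and higher in 1 (2489 to 2632 and 1597 to 2153 CPM). The part of these cells in the changes of Id3, Notch1 and Notch2 was not tested.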

How the data were processed

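Ribo-seq libraries of mouse neocortex (5 stages, 2 pooled libraries each) were used. Footprint counts per gene were deposited as whole numbers, whose totals differ between libraries. Per the study's methods, duplicate reads were removed, and STAR aligned the rest to the genome and, separately, to coding transcripts, keeping reads that match many places. The submitters' processing notes name STAR 2.7.0 and the methods an earlier version. The methods also describe isoform abundances from DeepShape-prime, turned by tximport into gene counts corrected for length. Whether the deposited table is that output, rounded, or holds direct read counts is not given in the sources used here. If it is the former, a count is an estimate in which reads shared by isoforms were apportioned. Of 22373 Ensembl identifiers, 22274 matched a symbol.

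The filter asked for 32 footprints in 1 stage, as the sum of its 2 libraries, and left 13484 genes. Counts were fitted in R 4.3.3 with limma-voom (limma 3.58.1) on TMM factors (edgeR 4.0.16), with 1 coefficient per stage over all 10 libraries, two-sided tests and Benjamini-Hochberg adjustment over the genes kept. Calls needed an adjusted p below 0.05 together with a 1.25-fold change. The p-values measure the spread between pools. Alternatives were 3 scalings, 2 filters, edgeR and DESeq2 1.42.0, only the stages compared, sample quality weights, a replicate block, and leaving out each library. The code was tested on simulated counts.

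The members, gene lists and naming rule were chosen with earlier results of these data known. The rule names all members, the pathway genes with the largest called changes among those that averaged 100 counts or more (3 in each direction between E14 and E15.5 and between E12.5 and P0, otherwise 2), and the gene most correlated with each member. Promoters and positions come from RefSeq (GRCm38.p6). No interval is given for counting error.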

Additional observations from a re-analysis of the deposited data

How the results depend on the processing

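Across the 5 comparisons, the member calls between E14 and E15.5 and between E12.5 and P0 changed least: 9 of 10 and 8 of 10 members were called, and every gene called there in the main analysis was called under all alternatives and without any 1 library. From E12.5 to E14, the 0 calls became 1 with DESeq2 and 1 with sample quality weights, and 0 to 2 when single libraries were left out. From E15.5 to E17, the 1 call became 2 with sample quality weights and 2 with only the 2 stages compared, and 0 to 2 without single libraries. From E17 to P0, the 3 calls became 0 with only the 2 stages compared, a fit that called 0 of all genes, and 1 with sample quality weights, and 1 to 4 without single libraries. Among the other pathway genes, the 0 calls of the first step became 1 with total counts only, 1 with edgeR, 1 with DESeq2, 3 with sample quality weights and 0 to 3 without single libraries. Their 32 calls from E14 to E15.5 ran from 14 to 37 without single libraries. Their 8 calls from E15.5 to E17 became 4 with no filter, 21 with only the 2 stages, 25 with sample quality weights and 0 to 20 without single libraries (0 to 18 of all genes without an E15.5 or E17 library), and their 16 calls from E17 to P0 became 0, with only the 2 stages, 6 with sample quality weights and 6 to 21 without single libraries. At the first step 1050 to 1059 of all genes were called without either P0 library and 0 to 5 without any other, against 86. Over all genes, the first step had 143 calls with total counts only, 85 with edgeR, 388 with DESeq2 and 655 with sample quality weights, against 86. From E15.5 to E17, 773 were called with no filter, 3212 with only the 2 stages and 3717 with sample quality weights, against 1219. From E17 to P0, 698 were called with sample quality weights, against 2767. The causes of these changes were not tested. Of the log2 fold changes of the named genes, 759 kept their direction and their side of the threshold under the alternatives that use all libraries or only 2 stages, 20 lost a call, 7 gained one and 14 turned sign. Without single libraries these numbers were 725, 52, 12 and 11.

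Signs turned for uncalled log2 fold changes, of which the largest in size was that of Hes6 from E12.5 to P0 (-0.27). For Hes5 from E15.5 to E17 (0.0091) they were -0.016 with total counts outside histone genes, -0.0019 with only the 2 stages, -0.0040 with sample quality weights and -0.12 to 0.14 without single libraries. For Hes6 at that step (-0.014) they were 0.048 with total counts only, 0.0029 with DESeq2 size factors, 0.0020 with DESeq2 and -0.099 to 0.067 without single libraries. For Hes6 from E17 to P0 (-0.029) they were 0.078 with total counts only, 0.0021 with DESeq2 size factors, 0.043 with edgeR, 0.096 with DESeq2, 0.096 with sample quality weights and -0.36 to 0.40 without single libraries. Id4 from E17 to P0 (-0.11) was 0.031 with DESeq2, 0.017 with sample quality weights and -0.46 to 0.36 without single libraries. Hes6 from E12.5 to P0 was 0.25 with total counts only and -0.60 to 0.15 without single libraries. Without single libraries the ranges were -0.23 to 0.0041 for Hes5 from E12.5 to E14, -0.012 to 0.24 for Notch2 and -0.44 to 0.18 for Dll1 from E15.5 to E17, and -0.32 to 0.25 for Hes1 and -0.12 to 0.81 for Hes5 from E17 to P0.

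Replicate numbers recur in the titles, but the correlation between 2 stages of the deviations of their replicate 1 libraries ran from -0.634 to 0.426 over 4559 genes, so the numbers were not taken to pair libraries. With the replicate block, the members called in the 5 comparisons, in order, were 0, 9, 1, 3 and 8, as without it, and the pathway genes 0, 29, 6, 13 and 49. The depth of P0 replicate 1 limits Notch1, Notch2, Dll1 and Dll3 at P0, with 4 to 10 counts each.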
